A study of Mus musculus with 6 samples.

Results

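Extracellular proteases and their inhibitors were examined in the myocardium of mice injected with STZ, a model of diabetes. The genes were the protein-coding genes of mouse build GRCm38 whose symbol is Mmp, Timp, Adam, Adamts or Adamtsl followed by a number. There were 83 of them among the 55401 genes of a complete file, made up of 22 Mmp, 4 Timp, 33 Adam, 19 Adamts and 5 Adamtsl genes. Mmp1a is annotated as a polymorphic pseudogene and was left out. RNA was sequenced from the myocardium of male wild-type (WT) mice given an injection of PBS or of STZ, with 3 libraries per group and a time label of 8 weeks for all. STZ, streptozotocin, destroys pancreatic beta cells, which make insulin, and is widely used to make mice diabetic. The labels give neither strain, age nor the event from which the time runs, and they do not say that libraries came from separate animals, so the spread behind the p-values is that of these libraries and may be technical. The file of PBS replicate 3 holds 7711 genes, and 34 of the 83 are among them. Groups were therefore compared on PBS replicates 1 and 2 and STZ replicates 1, 2 and 3, and PBS replicate 3 is given where it lists a gene.

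The Mmp genes encode zinc-dependent proteases that cut collagens, other matrix proteins and cell-surface proteins, and most are made as inactive precursors. The 4 Timp proteins bind the active site of these enzymes, and Timp3 also inhibits several ADAM and ADAMTS proteases. ADAM proteins sit in the cell membrane, where the catalytically active ones release the outer part of growth factors, cytokines and receptors. ADAMTS proteins are secreted and cut proteoglycans and procollagens, and the related ADAMTSL proteins lack the protease domain and bind fibrillin microfibrils. In the heart these families are known for remodelling of the matrix that fibroblasts, endothelial cells and muscle cells share. Bulk RNA cannot tell fewer cells of a type apart from less RNA per cell.

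Values are FPKM (fragments per kilobase of transcript, per library total), which are scaled by transcript length, so that levels can be compared between genes. A gene counted as detected where 2 or more of the 5 complete libraries reached 1 FPKM. This held for 27 of the 83 genes, namely 7 of 22 Mmp, 4 of 4 Timp, 6 of 33 Adam, 7 of 19 Adamts and 3 of 5 Adamtsl genes. Of the other 56, 22 were listed at 0 in all 5 complete libraries, 15 of them Adam genes, and 34 had low values, the highest being 1.41 FPKM (Adam1a in STZ replicate 3, which shares 63.7% of its exon length with genes on its own strand). The 83 genes together made up 0.0280% to 0.0312% of the FPKM total of the PBS libraries and 0.0360% to 0.0407% of that of the STZ libraries.

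In PBS hearts the highest levels belonged to the membrane-anchored protease Mmp15 (21.6 ± 0.332 FPKM, SD, n = 2), to Timp2 (20.8 ± 1.56 FPKM) and to Timp3 (17.3 ± 0.0354 FPKM). Mmp15 and Timp2 did not differ beyond their spread. The gelatinase Mmp2 (13.7 ± 0.834 FPKM) and the fibrillin-binding protein Adamtsl5 (12.6 ± 0.495 FPKM) followed, then Adam9 (9.35 ± 2.69), Adam19 (9.28 ± 1.80), Adamtsl4 (8.42 ± 0.191), Adamts1 (7.69 ± 2.17) and Adam15 (7.51 ± 1.06 FPKM), and each of the last 5 overlapped with the next in the order. In STZ hearts Timp3 stood first at 51.4 ± 6.67 FPKM (SD, n = 3), above Timp2 at 19.5 ± 2.49 FPKM in every library, and Mmp15 stood sixth at 11.2 ± 2.30 FPKM.

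**Figure D1:**
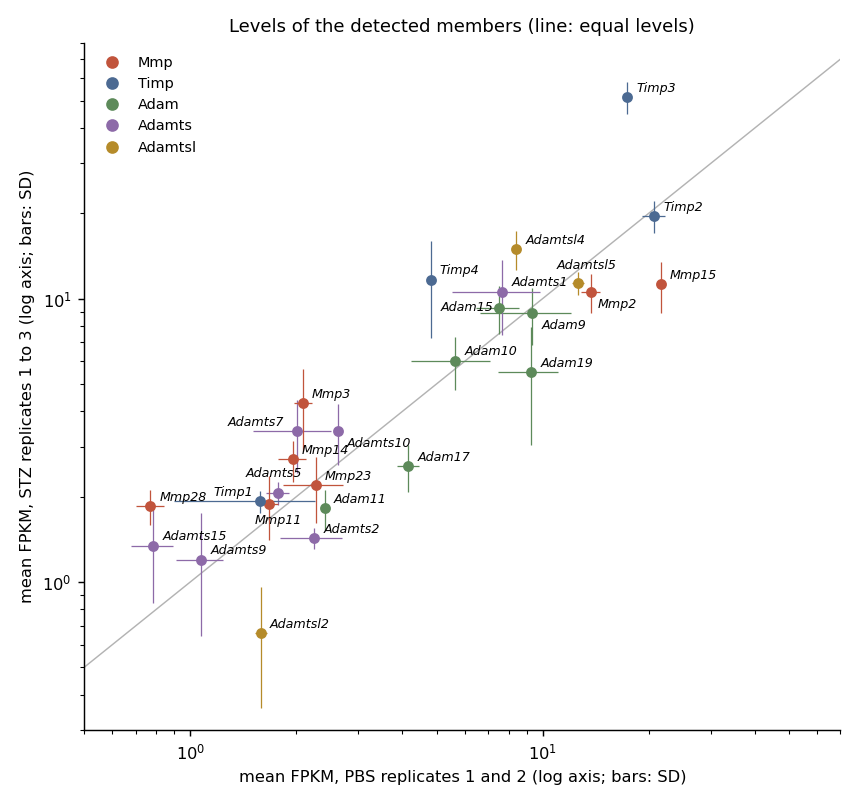
Mean FPKM of the 27 detected genes in PBS replicates 1 and 2 (x axis) and in STZ replicates 1 to 3 (y axis), both on log axes, with SD bars and colours for the 5 families. Timp3 lies highest above the line of equal levels, at 17.3 against 51.4 FPKM, and Mmp15 lies below it at 21.6 against 11.2 FPKM.

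The 27 detected genes were compared within a fit of all 11556 genes that met the same filter, on log2(FPKM + 1), with limma and p-values adjusted over all 11556. A fold change on this scale understates the change of low genes. Timp3, Mmp28 and Adamtsl4 were higher in STZ hearts and Mmp15 was lower, past an adjusted p of 0.05. These are 3 of 27 genes higher, where 3.64% of all tested genes were called higher, and 1 of 27 lower, where 2.17% were called lower. The STZ libraries lay above both PBS libraries for 7 of the 27 genes, against 28.7% of all tested genes, and below both for 6, against 18.8%. The median log2 fold change was 0.10 over the 27 genes and 0.06 over all tested genes. Mmp28, 1 of the 3 called higher, met the filter through STZ libraries alone, as did Adamts15. Adamtsl2 met it through PBS libraries alone. So these counts are not a measure of all 83 genes.

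**Figure D2:**
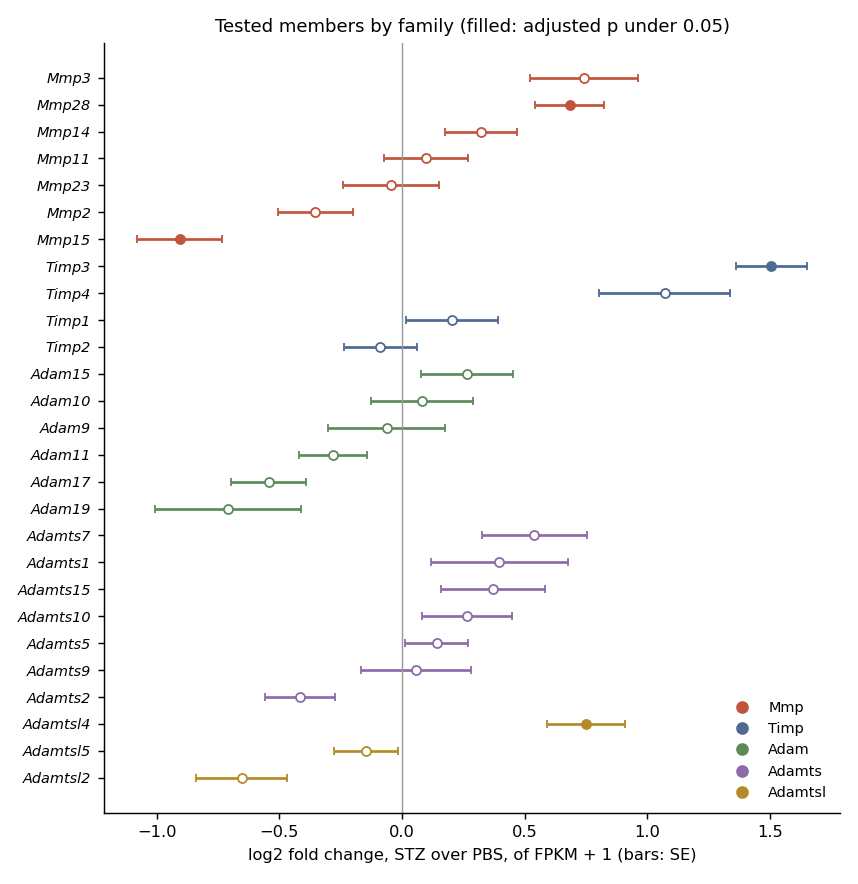
Log2 fold change of FPKM + 1, STZ over PBS (x axis), with its SE, for each of the 27 tested genes ordered by family. Filled points mark the 4 genes with an adjusted p under 0.05, from Timp3 at 1.51 to Mmp15 at -0.91, and open points the other 23.

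Among the inhibitors, Timp3 rose and the other 3 did not pass the test. Timp3 (ENSMUSG00000020044, chromosome 10, 86300372 to 86349506, GRCm38) is an inhibitor that stays bound to the matrix. It was at 17.3 FPKM in PBS replicate 1, 17.4 in PBS replicate 2 and 23.5 in PBS replicate 3, and 58.2, 44.9 and 51.0 FPKM in STZ hearts (replicates 1, 2, 3). The lowest STZ library stood clear of all 3 PBS libraries. The log2 fold change was 1.51 ± 0.14 (SE, limma adjusted p = 0.00806), and 1.37 with PBS replicate 3 in the fit (limma adjusted p = 0.00516). Without PBS replicate 1 or without PBS replicate 2 the change was as large (1.504 and 1.508), but the call was lost (limma adjusted p = 0.0872 and 0.0805). Timp3 lies within the gene of the synapsin Syn3 on the other strand, which shares 21.3% of its exon length. The strand setting of the quantification is not given in the sources used here, so both genes could share reads, and their part in the Timp3 values was not tested. Syn3 was between 0 and 0.09 FPKM in every complete library.

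Timp4, the member of the family known for its high level in heart, was at 4.86 and 4.75 FPKM in PBS hearts (replicates 1, 2), against 10.1, 8.29 and 16.6 FPKM in STZ hearts (replicates 1, 2, 3). All STZ libraries lay above both PBS libraries, with STZ replicate 3 apart from the other two. Its log2 fold change of 1.07 ± 0.27 did not pass (limma adjusted p = 0.0726), and it did after rescaling to TPM, where all libraries have the same sum (limma adjusted p = 0.0470). Timp2, an inhibitor that also helps to activate Mmp2, was at 21.9, 19.7 and 18.4 FPKM in the PBS libraries and 21.7, 20.03 and 16.8 FPKM in the STZ libraries, and the groups overlapped (log2 fold change -0.09, limma adjusted p = 0.737). Timp1, the member that is often induced in injured tissue, was low, at 2.06, 1.10 and 1.63 FPKM in PBS and 2.01, 1.73 and 2.03 FPKM in STZ replicates 1, 2 and 3 (limma adjusted p = 0.525).

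**Figure D3:**
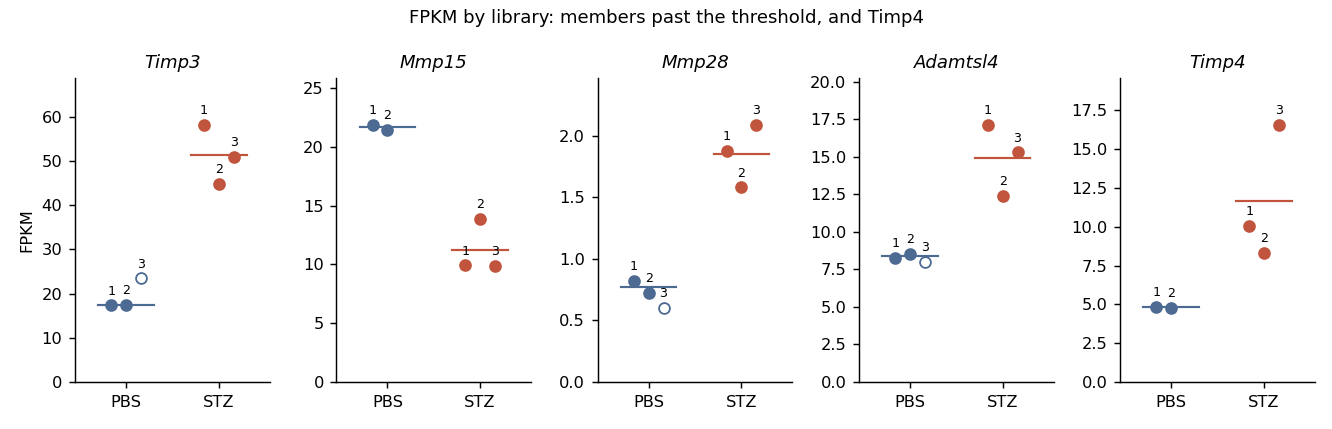
FPKM of Timp3, Mmp15, Mmp28, Adamtsl4 and Timp4 by library (y axes from 0, a scale for each gene), with replicate numbers beside the points, the open point for PBS replicate 3 where listed, and a line at the mean of the fitted libraries. No STZ library overlaps a PBS library in any of the 5 panels, and STZ replicate 3 of Timp4 stands at 16.6 FPKM.

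Of the proteases, Mmp15 fell and Mmp28 rose. Mmp15 (ENSMUSG00000031790, chromosome 8, 95352268 to 95375080), a membrane-type metalloproteinase, was at 21.9 and 21.4 FPKM in PBS hearts (replicates 1, 2), against 9.91, 13.9 and 9.87 FPKM in STZ hearts (replicates 1, 2, 3). The groups did not overlap, and PBS replicate 3 does not list the gene. The change was -0.91 ± 0.17 on the log2 scale (limma adjusted p = 0.0400). The call was lost on the TPM scale (limma adjusted p = 0.0645) and without PBS replicate 1, PBS replicate 2, STZ replicate 1 or STZ replicate 3 (limma adjusted p = 0.238, 0.205, 0.0823 and 0.0746), where the log2 fold change lay between -0.92 and -0.83.

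Mmp28, also called epilysin, is a secreted metalloproteinase (ENSMUSG00000020682, chromosome 11, 83440768 to 83463071). It was at 0.82, 0.72 and 0.60 FPKM in PBS hearts (replicates 1, 2, 3) and at 1.88, 1.58 and 2.09 FPKM in STZ hearts. No PBS library reached 1 FPKM, so Mmp28 met the filter through STZ libraries alone. All STZ libraries stood above all PBS libraries. Its log2 fold change was 0.68 ± 0.14 (limma adjusted p = 0.0465), and 0.73 with PBS replicate 3 added (limma adjusted p = 0.0170). The call was lost with any 1 of the 5 fitted libraries left out (limma adjusted p from 0.0582 without STZ replicate 2 to 0.257 without PBS replicate 2) and after centring each library on its median (limma adjusted p = 0.0646). With no filter on low values the call was lost too (limma adjusted p = 0.130), as it was after quantile normalization and with the replicate number as a block. The log2 fold change was 1.16 with a pseudocount of 0.1. A gene of unknown function on the other strand, 1700020L24Rik, shares 12.0% of its exon length and was at 0.98 and 1.26 FPKM in PBS and 1.39, 1.27 and 1.73 FPKM in STZ, so reads of both could mix.

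Mmp3 (stromelysin 1), which cuts proteoglycans and activates other precursors of the family, was at 2.0 and 2.18 FPKM in PBS and 3.11, 5.79 and 3.94 FPKM in STZ. It lay higher in every STZ library but did not pass (log2 fold change 0.74 ± 0.22, limma adjusted p = 0.0983). Mmp14, the membrane enzyme that activates the precursor of Mmp2, was at 2.08, 1.83 and 1.56 FPKM in the PBS libraries and 3.21, 2.36 and 2.55 FPKM in the STZ libraries, without overlap (0.32 ± 0.15, limma adjusted p = 0.218). Mmp2 was at 14.3 and 13.1 FPKM in PBS and 9.98, 12.4 and 9.28 FPKM in STZ, also without overlap but in the other direction (-0.35 ± 0.15, limma adjusted p = 0.205). Mmp11 and Mmp23, at 1.31 to 2.58 FPKM in all 6 libraries, had overlapping groups.

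None of the 6 detected Adam genes passed the test in limma. For Adam17 and Adam11 all STZ libraries lay below both PBS libraries, as for 18.8% of all tested genes. Adam17, the sheddase that releases tumour necrosis factor and ligands of the epidermal growth factor receptor, was at 4.38 and 3.94 FPKM in PBS and at 2.48, 3.07 and 2.12 FPKM in STZ (log2 fold change -0.54 ± 0.15, limma adjusted p = 0.0879). Adam11, a member without a working catalytic site, was at 2.44, 2.38 and 2.35 FPKM in the PBS libraries and 1.97, 1.48 and 2.0 FPKM in the STZ libraries (-0.28 ± 0.14, limma adjusted p = 0.255). Adam19, a protease known from heart valve and septum development, was at 10.6, 8.01 and 7.24 FPKM in PBS and 4.30, 8.33 and 3.89 FPKM in STZ. STZ replicate 2 fell among the PBS libraries, and the other two STZ libraries lay below them (-0.71 ± 0.30, limma adjusted p = 0.192). Adam10, the main sheddase of Notch receptors and cadherins, was at 6.65 and 4.64 FPKM in PBS and 5.92, 7.36 and 4.80 FPKM in STZ (limma adjusted p = 0.832). The groups overlapped. Adam15, which binds integrins, was at 8.26, 6.76 and 8.15 FPKM in PBS and 7.21, 10.2 and 10.5 FPKM in STZ (limma adjusted p = 0.412), and a gene on the other strand, at 0.50 FPKM or less, shares 20.6% of its exon length. Adam9, at 6.62 to 11.3 FPKM, also overlapped between groups (limma adjusted p = 0.889).

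None of the 7 detected Adamts genes passed the test in limma either. The lowest adjusted p values were those of Adamts2, which removes the amino-terminal propeptide of fibrillar procollagens, and Adamts7, which cuts the cartilage matrix protein Comp. Adamts2 was at 2.57 and 1.93 FPKM in PBS and 1.48, 1.29 and 1.51 FPKM in STZ (log2 fold change -0.42 ± 0.14, limma adjusted p = 0.133). Adamts7 was at 1.65 and 2.36 FPKM in PBS and 2.63, 3.08 and 4.50 FPKM in STZ (0.54 ± 0.21, limma adjusted p = 0.173). So the libraries of both groups stood apart for both genes, in opposite directions.

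Of the proteoglycan-cutting members, Adamts1 was at 9.22, 6.15 and 7.68 FPKM in PBS and 7.03, 12.9 and 11.8 FPKM in STZ (limma adjusted p = 0.405), and Adamts5 at 1.87, 1.68 and 1.38 FPKM in PBS and 2.15, 2.20 and 1.84 FPKM in STZ (limma adjusted p = 0.518). The groups overlapped for both, which are neighbours on chromosome 16 within 108 kb. Adamts9 was at 1.19, 0.96 and 1.41 FPKM in PBS and 0.73, 1.81 and 1.06 FPKM in STZ (limma adjusted p = 0.892). Adamts15 was at 0.86 and 0.71 FPKM in PBS and 1.41, 1.81 and 0.81 FPKM in STZ (limma adjusted p = 0.312). Adamts10, which binds fibrillin, was at 2.29 to 4.08 FPKM in all 6 libraries (limma adjusted p = 0.402).

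Adamtsl4 rose, while the other two detected ADAMTS-like genes did not pass. Adamtsl4 (ENSMUSG00000015850, chromosome 3, 95676201 to 95687917), which promotes the assembly of fibrillin into microfibrils, was at 8.28, 8.55 and 7.97 FPKM in PBS hearts (replicates 1, 2, 3) and at 17.1, 12.4 and 15.3 FPKM in STZ hearts. Every STZ library lay above every PBS library. The log2 fold change was 0.75 ± 0.16 (limma adjusted p = 0.0491), close to the threshold, and 0.77 with PBS replicate 3 added (limma adjusted p = 0.0172). It no longer passed with a pseudocount of 0.1, with no filter on low values or without the eBayes trend. Nor did it pass after quantile normalization or after rescaling without mitochondrial and haemoglobin genes. The same held with the replicate number as a block and with replicates 2 and 3 of both groups. The call was lost without PBS replicate 1, PBS replicate 2, STZ replicate 1 or STZ replicate 3 (limma adjusted p = 0.281, 0.234, 0.0881 and 0.0911) and after centring (limma adjusted p = 0.0730).

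Adamtsl2, which binds latent TGF-beta binding protein and fibrillin, was at 1.63 and 1.54 FPKM in PBS and 0.97, 0.37 and 0.64 FPKM in STZ, without overlap (log2 fold change -0.65 ± 0.19, limma adjusted p = 0.0919). Adamtsl5 was at 12.3 and 12.97 FPKM in PBS and 10.3, 12.4 and 11.3 FPKM in STZ (limma adjusted p = 0.505), so the groups overlapped. Adamtsl4 made up 36.3% and 36.1% of the summed FPKM of the 5 Adamtsl genes in PBS hearts, against 59.5%, 47.9% and 54.7% in STZ hearts.

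The stretch just before the RefSeq transcription start of the 4 genes that passed the test is shown. It gives the region at which transcription of each begins. Each stretch is 250 bases, 5′ to 3′ on the gene's strand, from RefSeq on GRCm38.p6. GENCODE transcripts of Timp3, Mmp15 and Mmp28 begin within the last bases. The marked box of Timp3 and the second of Mmp28 lie past that GENCODE start, and the first of Mmp28 spans it. Capitals mark GGGCGG on either strand, the GC box that binds Sp1-type factors. The positions are chr10:86300162-86300411 on the plus strand for Timp3, chr8:95352046-95352295 on the plus strand for Mmp15, chr11:83463041-83463290 on the minus strand for Mmp28 and chr3:95687918-95688167 on the minus strand for Adamtsl4.
Timp3: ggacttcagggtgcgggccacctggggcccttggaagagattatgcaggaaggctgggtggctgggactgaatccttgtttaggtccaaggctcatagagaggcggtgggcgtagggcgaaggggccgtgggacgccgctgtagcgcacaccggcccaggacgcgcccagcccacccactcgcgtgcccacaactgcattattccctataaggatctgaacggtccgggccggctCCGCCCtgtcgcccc
Mmp15: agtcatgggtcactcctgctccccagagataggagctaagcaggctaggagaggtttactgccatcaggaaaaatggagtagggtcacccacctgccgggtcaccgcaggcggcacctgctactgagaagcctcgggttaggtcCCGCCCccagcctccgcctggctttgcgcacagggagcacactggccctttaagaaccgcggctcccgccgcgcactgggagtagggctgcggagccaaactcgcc
Mmp28: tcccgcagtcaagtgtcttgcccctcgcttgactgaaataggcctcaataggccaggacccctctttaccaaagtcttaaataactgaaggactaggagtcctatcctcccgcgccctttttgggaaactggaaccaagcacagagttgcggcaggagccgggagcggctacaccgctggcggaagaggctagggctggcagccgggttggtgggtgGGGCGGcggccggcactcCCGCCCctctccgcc
Adamtsl4: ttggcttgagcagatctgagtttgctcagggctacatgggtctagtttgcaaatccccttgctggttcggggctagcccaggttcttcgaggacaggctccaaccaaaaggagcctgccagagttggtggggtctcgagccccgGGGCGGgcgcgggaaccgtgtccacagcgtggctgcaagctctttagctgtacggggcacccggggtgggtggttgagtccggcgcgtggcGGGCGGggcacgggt
Timp3 and Mmp15 held 1 GC box each, and Mmp28 and Adamtsl4 held 2 each. A GC box was found in 32.7% of 32851 mouse promoters of the same length, and in 16 of 23 promoters of the 20 detected genes that matched the table. All 4 stretches were rich in G and C (62.0% to 65.6%, against a median of 52.4% over all promoters). Searched on both strands, the letters of the AP-1 element (TGANTCA), of the TATA box (TATAAA), of the CCAAT box (those 5 letters), of a forkhead element (GTAAACA) and of an E box (CACGTG) were in none of these 4 windows, so no match overlapped another motif. Over all promoters these motifs were in 6.75%, 12.4%, 33.8%, 3.17% and 6.02%. The gene that fell and the 3 that rose thus had the same kind of match in these windows.

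Summed over the family, inhibitor transcripts stood higher in STZ hearts, while the Mmp sum was lower through Mmp15. The 4 Timp genes summed to 46.1 and 42.9 FPKM in PBS hearts (replicates 1, 2), against 92.04, 75.0 and 86.4 FPKM in STZ hearts (replicates 1, 2, 3). The 22 Mmp genes summed to 46.1 and 45.3 FPKM in PBS and 35.5, 43.2 and 34.0 FPKM in STZ. Without Mmp15 the Mmp sum was 24.3 and 23.9 FPKM in PBS and 25.6, 29.4 and 24.1 FPKM in STZ, so the groups overlapped. The ratio of the Timp sum to the Mmp sum, which no scaling of a library can alter, was 0.999 and 0.946 in PBS hearts, against 2.59, 1.73 and 2.54 in STZ hearts. These sums are given without a test, since Timp3, Timp4 and Mmp15 dominate the difference.

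Timp3 made up 37.6% and 40.5% of the Timp sum in PBS and 63.3%, 59.9% and 59.0% in STZ, while Timp2 went from 47.4% and 45.8% to 23.6%, 26.7% and 19.5%. Mmp15 made up 47.4% and 47.2% of the Mmp sum in PBS and 27.9%, 32.1% and 29.0% in STZ. The share of Mmp2 was 28.9% to 30.9% in PBS and 27.3% to 28.8% in STZ, and that of Mmp3 was 4.33% and 4.81% in PBS against 8.76%, 13.4% and 11.6% in STZ. Adam sums overlapped between groups (45.7 and 35.2 against 33.5, 43.8 and 33.4 FPKM), as did Adamts sums (22.4 and 18.0 against 20.5, 28.2 and 27.7 FPKM). Adamtsl sums did not (22.8 and 23.7 against 28.8, 25.9 and 28.0 FPKM).

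**Figure D4:**
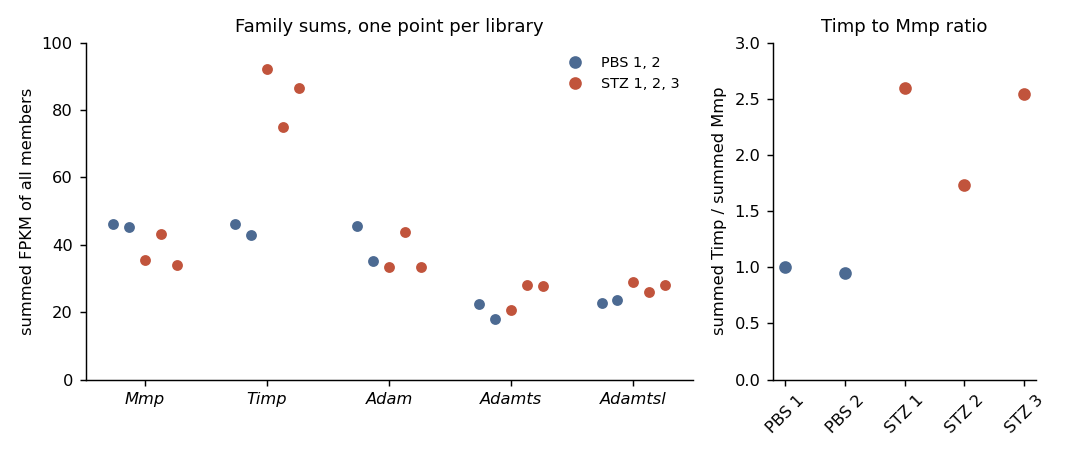
Left, summed FPKM of all genes of each family (y axis from 0), 1 point per complete library, and right, the ratio of the Timp sum to the Mmp sum in the same 5 libraries. The Timp sums of the STZ libraries lie between 75.0 and 92.04 FPKM, above the PBS libraries at 42.9 and 46.1 FPKM, and the ratio is 0.999 or less in PBS and 1.73 or more in STZ.

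Of the 34 genes with values above 0 but below the filter, 8 lay higher in all STZ libraries than in both complete PBS libraries and 4 lay lower in all. Over all 14673 genes of that kind these shares were 10.3% and 7.57%. Among the 34, the neutrophil collagenase Mmp8 had the widest gap between groups. It was at 0.02 FPKM in PBS replicate 1, was listed at 0 in PBS replicates 2 and 3, and was at 0.79, 1.01 and 0.68 FPKM in STZ replicates 1, 2 and 3. With no filter on low values its log2 fold change was 0.85, which did not pass (limma adjusted p = 0.0706). The gelatinase Mmp9, also stored by neutrophils, was at 0.34, 0.26 and 0.36 FPKM in PBS and 0.50, 0.64 and 0.41 FPKM in STZ, where the lowest STZ library was above the highest PBS library (limma adjusted p = 0.406 with no filter).

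Of 11 neutrophil markers 3 met the filter (S100a8, S100a9 and Retnlg), Retnlg through STZ libraries alone, and these 3 were called higher in STZ, where 3.64% of all tested genes were. Summed over the 11, most of it from S100a8 and S100a9, the level was 3.64 and 8.30 FPKM in PBS and 42.3, 62.8 and 52.4 FPKM in STZ. Below the filter, Cxcr2 was at 0.03, 0.16 and 0.13 FPKM in PBS and 0.72, 0.54 and 0.34 FPKM in STZ. Ngp and Ltf also lay above both complete PBS libraries in every STZ library, highest in STZ replicate 2 at 3.56 and 0.73 FPKM. Camp was above 0 in STZ replicate 2 alone, at 0.78 FPKM. The granule genes Mpo and Elane were listed at 0 in all 5 complete libraries. Ly6g was at 0 in the PBS libraries and at 0.10, 0.38 and 0 FPKM in STZ. Csf3r, the receptor of the granulocyte growth factor, overlapped between groups, at 0.32, 0.60 and 0.34 FPKM in PBS and 0.81, 0.38 and 0.58 FPKM in STZ. Whether neutrophils carried the Mmp8 and Mmp9 values was not tested.

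The aggrecanase Adamts4 was at 0.36, 0.31 and 0.27 FPKM in PBS hearts (replicates 1, 2, 3) and at 0.13, 0.12 and 0.05 FPKM in STZ hearts, lower in each (limma adjusted p = 0.126 with no filter). Adam12, a protease of regenerating muscle and activated fibroblasts, was at 0.06 FPKM in both complete PBS libraries and at 0.01, 0.02 and 0 FPKM in STZ. The files give FPKM to 2 decimals without counts, so the depth behind such low values is unknown. Adamts8 did not follow the groups. It was at 0.60 and 0.08 FPKM in PBS hearts (replicates 1, 2), against 0.74, 0.22 and 0.10 FPKM in STZ hearts (replicates 1, 2, 3), highest in replicate 1 of both groups. The atrial light chain Myl7 had the same highest libraries and fell from replicate 1 to replicate 3 in both groups. It was at 262, 37.9 and 0.21 FPKM in PBS hearts (replicates 1, 2, 3). In STZ hearts it was at 357, 73.7 and 0.28 FPKM (same order). Whether atrial tissue carried the Adamts8 values was not tested.

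**Figure D5:**
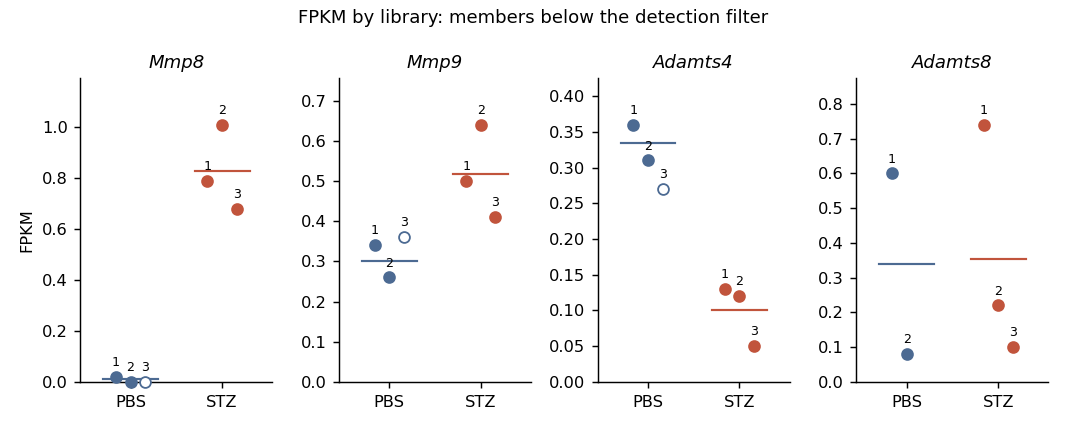
FPKM of Mmp8, Mmp9, Adamts4 and Adamts8 by library (y axes from 0, a scale for each gene), with replicate numbers beside the points, the open point for PBS replicate 3 where listed, and a line at the mean of the complete libraries. Mmp8 and Mmp9 lie higher in all STZ libraries and Adamts4 lower, while Adamts8 is highest in replicate 1 of both groups, at 0.60 and 0.74 FPKM.

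The surrounding pathway was described with 4 lists chosen by function. The first held genes that activate or inhibit extracellular proteolysis. Pcsk6, a proprotein convertase, fell from 12.4 and 11.7 FPKM to 6.69, 6.26 and 5.83 FPKM (-0.85 ± 0.12, limma adjusted p = 0.0201). The cathepsin inhibitor Cst3 was at 286, 286 and 267 FPKM in PBS and 371, 386 and 375 FPKM in STZ (limma adjusted p = 0.0772).

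Among 11 tested genes of other matrix proteases and their enhancers, none passed in either direction in limma (median log2 fold change -0.07). The lowest limma adjusted p values were those of Pcolce, which enhances procollagen processing (0.0665, 9.81, 8.17 and 8.47 FPKM in PBS and 5.45, 5.96 and 6.09 FPKM in STZ), cathepsin B (Ctsb, 0.0752) and Htra1 (0.0884). Among 17 tested partners and cargo proteins of ADAM sheddases none passed in limma either (median log2 fold change 0.20). The lowest adjusted p was that of Hbegf, a growth factor that Adam17 releases. Hbegf was at 2.73, 2.28 and 2.48 FPKM in PBS and 1.59, 1.56 and 1.57 FPKM in STZ (limma adjusted p = 0.0907). The chemokine Cx3cl1 was at 3.24 and 2.71 FPKM in PBS and 1.78, 2.56 and 1.81 FPKM in STZ (limma adjusted p = 0.189). The Adam17 partner Frmd8 lay the other way, at 1.29, 1.72 and 1.58 FPKM in PBS and 1.82, 2.49 and 2.61 FPKM in STZ (limma adjusted p = 0.190).

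Of 20 tested matrix substrates and fibrillin partners 5 fell, where 2.17% of all tested genes were called lower, and 0 rose. The median was -0.39, against 0.06 over all tested genes. The 5 were collagen genes, namely Col1a1, Col1a2 (8.88, 7.30 and 7.16 FPKM in PBS, 4.31, 3.42 and 3.65 in STZ), Col3a1, Col4a1 (56.6 and 36.7 FPKM in PBS, 18.7, 22.4 and 16.2 in STZ) and Col4a2, so the count comes from collagens alone. Col3a1 was at 19.4, 17.3 and 14.7 FPKM in PBS and 2.46, 1.70 and 1.94 FPKM in STZ (log2 fold change -2.68, limma adjusted p = 0.00175), and Col1a1 at 14.7, 11.2 and 11.2 FPKM in PBS and 3.79, 3.32 and 3.03 FPKM in STZ (-1.67, limma adjusted p = 0.00806). Col4a2, a basement membrane collagen, was at 51.2 and 44.5 FPKM in PBS and 27.1, 24.6 and 22.3 FPKM in STZ (-0.93, limma adjusted p = 0.0243). These falls were known from earlier work on these libraries when the list was made. Without passing, Fbn1 lay below all PBS libraries in every STZ library and Vwf above them (limma adjusted p = 0.0598 and 0.0548). Of the 20, 2 had all STZ libraries above both complete PBS libraries and 10 below, against 28.7% and 18.8% of all tested genes.

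Cell type markers were summed in the same libraries. The muscle markers Myh6 (2925 and 3083 FPKM in PBS, 2244, 2219 and 2546 in STZ) and Tnnt2 (671, 756 and 738 FPKM in PBS, 813, 848 and 1099 in STZ) were high, the first lower and the second higher in all STZ libraries, without passing the test. Cardiomyocyte markers had the highest sum of the 9 marker lists in every library, as for the labelled tissue. Fibroblast markers summed to 463 and 431 FPKM in PBS and 470, 425 and 423 FPKM in STZ, mostly from Gsn, which overlapped. Of the 8, Pi16 and Col1a1 were called lower and none higher. Without passing, Dpt and Ddr2 lay below both complete PBS libraries in every STZ library, and Pdgfra, Tcf21 and Dcn lay above them. The sums of smooth muscle and pericyte markers (145 and 145 against 129, 143 and 171 FPKM) and of macrophage markers (204 and 178 against 135, 195 and 166 FPKM) overlapped. Of the 7 macrophage markers, Adgre1 (limma adjusted p = 0.0668), Csf1r and Mrc1 lay below both complete PBS libraries in every STZ library, without passing. Cd68, C1qa, C1qb and Lyz2 overlapped. Tagln and Abcc9 of the smooth muscle and pericyte markers also lay below without passing, and the rest overlapped. Endothelial markers summed to 185 and 193 FPKM in PBS and 288, 338 and 403 FPKM in STZ, mostly through Fabp4. Of the 6, Fabp4 alone was called higher. Pecam1 and Egfl7 lay above all PBS libraries in every STZ library (limma adjusted p = 0.0962 and 0.107). With PBS replicate 3 added both passed (limma adjusted p = 0.0391 and 0.0449). In that fit the fibroblast marker Dcn also passed as higher and the macrophage marker Adgre1 as lower (limma adjusted p = 0.0434 and 0.0339). It called 1169 of all tested genes, against 672 without PBS replicate 3. Kdr lay below both complete PBS libraries in every STZ library, and Cdh5 and Tie1 overlapped. Cardiomyocyte markers summed to 11627 and 12264 FPKM in PBS and 9112, 8711 and 10096 FPKM in STZ, with Actc1 called lower of 6. Ryr2 was at 35.6, 28.9 and 30.3 FPKM in PBS and 21.8, 12.35 and 7.95 FPKM in STZ, without passing (limma adjusted p = 0.101). Tnni3 and Myl2 overlapped. The part of these cell types in the differences of Timp3, Mmp15, Mmp28 and Adamtsl4 was not tested.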

How the data were processed

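Myocardial RNA of 6 libraries, 3 per group, was measured as FPKM per gene, in the form the authors deposited (2 decimals). Per the submitters' processing notes, the tools were StringTie 1.3.4d, HISAT2 2.0.4 and cutadapt 1.9, and the build GRCm38. The strand setting of the quantification is not given in the sources used here. Counts were not used, so depth is unknown and no counting interval is given. FPKM are relative to a library's total, which was 531384 to 589719 in the 5 complete libraries. PBS replicate 3, which lists 13.9% of the genes, was added as an alternative only.

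Symbols came from GENCODE M21 of the same build and matched 55141 of 55401 identifiers. Genes that reached 1 FPKM in 2 or more complete libraries were tested on log2(FPKM + 1), pseudocount 1, with limma 3.58.1 in R 4.3.3 (eBayes with trend, two-sided) and Benjamini-Hochberg adjustment over all 11556 genes, threshold 0.05. The test was also run on simulated data, drawn as independent normal values with the spread of these libraries. There the STZ against PBS test recovered 66% of genes changed by 1 and 98% of those changed by 2 on the log2 scale. Of all calls made in that simulation, 6.3% were false.

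Every detected gene is named. Values by library are given for genes past the threshold, the 10 smallest p-values and a list of well-known members. For the pathway lists they are given for genes past the threshold and for up to 3 with the smallest p. A result that this rule takes is not reported here. Values of Adam1a, Adam9, Adam11, Adamts8, Adamts10, Mmp11 and Mmp23 outside that rule were chosen after they were seen, as were the p-values of Fbn1 and Vwf. The genes and lists were chosen with earlier results of these data known. Promoters are RefSeq sequences on GRCm38.p6, where 52 of the 83 genes matched. Protein sequence was not analysed here.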

Additional observations from a re-analysis of the deposited data

How the results depend on the processing

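Against 3 genes called higher, there was 1 with no filter on low values, 1 after median centring, 1 after quantile normalization, 0 with the replicate number as a replicate block and 5 at a threshold of 0.1. Against 1 gene called lower there were 0 with no filter, 0 on the TPM scale, 0 with the replicate block, 0 over the genes listed in all 6 files, 0 with replicates 2 and 3 of both groups (an alternative chosen after seeing the data) and 3 at a threshold of 0.1. The settings restricted to genes listed in all 6 files do not hold Mmp15, which PBS replicate 3 does not list. Leaving out 1 library gave 0 to 2 higher and 0 to 1 lower calls. The cause was not tested.

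The labels do not say whether the replicate numbers pair the libraries. Over 4811 genes, deviations of same-numbered libraries from their group means had correlations of 0.18, -0.05 and 0.15. Between libraries of unlike number they ran from -0.23 to 0.09. These values cannot decide the question, since deviations from the mean of 3 libraries depend on each other. With the block 36 genes of all tested were called higher and 28 lower, against 421 and 251 without it.

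The sign was followed through every alternative for 22 of the 27 detected genes, and 18 of the 22 kept it. Of the other 5, followed through the scalings only, Adam9 went from -0.06 to 0.00040 on the TPM scale. The log2 fold change of Timp1 ran from -0.0675 to 0.476 over the leave-one-out fits, that of Timp2 from -0.167 to 0.00904 (0.00904 with the replicate block), that of Adam10 from -0.14 to 0.30 and that of Adamts9 from -0.13 to 0.22. Adamts9 was at -0.0120 after centring, -0.0117 after quantile normalization, and -0.0156 with PBS replicate 3 added or over the genes of all 6 files. Scaling moved the balance of calls: 62.6% of all calls were higher as deposited, 48.5% after centring, 50.2% after quantile normalization and 73.8% on the TPM scale. In all, 672 genes were called, against 81 with no filter, 64 with the block, 24 without PBS replicate 1, 29 without PBS replicate 2, 348 without STZ replicate 1, 392 without STZ replicate 2, 398 without STZ replicate 3, 240 with replicates 2 and 3 and 1169 with PBS replicate 3 added. The 2 complete PBS libraries limit the precision of every call.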

Other observations

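Of the 22 Mmp genes, 9 lie within 427 kb of each other on chromosome 9 (7272514 to 7699585, GRCm38), and Mmp3 was the 1 of them that was detected. In the same cluster Mmp8 had its values in STZ libraries, as given above. Mmp27 was at 0.02 and 0.04 FPKM in PBS and 0.12, 0.11 and 0.10 FPKM in STZ. Mmp13, a collagenase, was at 0.03 and 0.40 FPKM in PBS replicates 1 and 2, was listed at 0 in STZ replicates 1 and 2 and was at 0.02 FPKM in STZ replicate 3. With no filter on low values neither passed (limma adjusted p = 0.203 for Mmp27 and 0.449 for Mmp13). These genes were chosen after their values were seen.

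Other genes below the filter had groups of complete libraries that stood apart at low levels, in both directions. Mmp17, a membrane-anchored protease, was at 0.30, 0.48 and 0.49 FPKM in PBS and 0.62, 0.60 and 0.54 FPKM in STZ. Mmp19 was at 0.49, 0.55 and 0.52 FPKM in PBS and 0.73, 0.73 and 0.56 FPKM in STZ. Genes on the other strand share 28.3% of the exon length of Mmp19, so reads could mix. Adamts3, which like Adamts2 trims procollagens, was at 0.40 FPKM in both complete PBS libraries and 0.60, 0.58 and 0.57 FPKM in STZ. Adam33 was at 0.23, 0.23 and 0.05 FPKM in PBS and 0.27, 0.47 and 0.41 FPKM in STZ, and Adam8, of leukocytes, at 0.22, 0.26 and 0.28 FPKM in PBS and 0.27, 0.62 and 0.42 FPKM in STZ, where it overlapped with PBS replicate 3. Adamts12 lay the other way, at 0.20 and 0.13 FPKM in PBS and 0.11, 0.11 and 0.06 FPKM in STZ. With no filter on low values the limma adjusted p of these 6 genes ran from 0.440 (Adamts3) to 0.623 (Mmp19). These were also chosen after their values were seen.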
